A study of Mus musculus with 228 samples.

Results

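The cells described here were 30 of 47 control granule cells of the mouse ventral hippocampus, the 15 with the highest and the 15 with the lowest level of 6 immediate early genes. Each cell was drawn into a patch pipette from an acute slice, and its RNA was sequenced. For each cell, reads per gene were scaled to a total of 1000000 gene-assigned reads (CPM, counts per 1000000), and the CPM of Fos, Junb, Egr1, Arc, Npas4 and Nr4a1 were summed to a score. The high-score and low-score subsets were the 15 highest and 15 lowest cells chosen by these measured values, and the 17 cells between them are given as the middle. The mice were Calb1-Cre animals of 3 to 4 months, and 1 month earlier a Cre-dependent AAV (adeno-associated virus) coding for EGFP, a green fluorescent protein, had been injected into the hippocampus. Every control granule cell shares this virus, this Cre line and the slice preparation, and Calb1 itself drives the Cre. The other groups of the quality-controlled table are 51 granule cells given AAV-Ascl4 together with AAV-EGFP, and 46 EGFP and 45 Ascl4 CA1 pyramidal cells of Nex-Cre mice. The mice of these groups were also 3 to 4 months old, 1 month after AAV injection. The labels name no animal, slice or recording time, so cells were not taken as replicates, and all comparisons are given without a test.

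Immediate early genes are transcribed within minutes of synaptic activity, without new protein synthesis, when calcium entry and kinase signalling act on CREB (the factor that binds the cyclic AMP response element, CRE) and on SRF (the factor that binds the CArG box). Fos and Junb encode subunits of the AP-1 transcription factor, Egr1 a zinc finger factor, Npas4 a calcium-dependent basic helix-loop-helix factor and Nr4a1 an orphan nuclear receptor, whereas Arc encodes a synaptic protein that promotes AMPA receptor endocytosis. In the dentate gyrus these genes are widely used to mark recently active granule cells, which are otherwise sparsely active, and their RNA is short-lived.

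The sequence upstream of the start was read from RefSeq for genes of the score and for 2 genes outside it, because these motifs are the elements through which activity is known to reach such promoters. Each line gives the 250 bases before the start, 5′ to 3′ on the gene's strand, with every CRE (TGACGTCA), CRE half-site (TGACG, or CGTCA on the other strand) and CArG box in capitals. A full CRE holds 2 overlapping half-sites. Egr2 has several RefSeq starts, and the window with the most motif letters is shown. In build GRCm38.p6 the windows are chr12:85473640-85473889 (plus strand) for Fos, chr8:84978749-84978998 (minus) for Junb, chr15:101266596-101266845 (plus) for Nr4a1, chr10:67537619-67537868 (plus) for Egr2 and chr1:134079156-134079405 (minus) for Btg2.
Fos: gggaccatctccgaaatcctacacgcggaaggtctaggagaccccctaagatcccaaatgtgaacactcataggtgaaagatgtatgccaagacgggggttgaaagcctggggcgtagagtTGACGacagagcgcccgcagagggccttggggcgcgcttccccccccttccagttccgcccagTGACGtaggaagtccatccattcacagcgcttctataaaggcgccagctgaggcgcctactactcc
Junb: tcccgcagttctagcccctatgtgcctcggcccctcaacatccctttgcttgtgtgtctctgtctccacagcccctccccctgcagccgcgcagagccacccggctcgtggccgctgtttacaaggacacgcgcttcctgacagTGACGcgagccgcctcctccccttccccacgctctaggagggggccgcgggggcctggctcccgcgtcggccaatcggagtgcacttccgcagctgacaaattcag
Nr4a1: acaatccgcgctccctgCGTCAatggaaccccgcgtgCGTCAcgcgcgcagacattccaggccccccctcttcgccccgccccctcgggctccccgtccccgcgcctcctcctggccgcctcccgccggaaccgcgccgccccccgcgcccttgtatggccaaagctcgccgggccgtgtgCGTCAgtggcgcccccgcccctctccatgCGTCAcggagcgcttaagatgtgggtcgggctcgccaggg
Egr2: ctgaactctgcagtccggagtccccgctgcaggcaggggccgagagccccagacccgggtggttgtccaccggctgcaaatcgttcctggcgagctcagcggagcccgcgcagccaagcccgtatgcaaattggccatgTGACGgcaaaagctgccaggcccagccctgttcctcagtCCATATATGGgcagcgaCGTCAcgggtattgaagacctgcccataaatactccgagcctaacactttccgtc
Btg2: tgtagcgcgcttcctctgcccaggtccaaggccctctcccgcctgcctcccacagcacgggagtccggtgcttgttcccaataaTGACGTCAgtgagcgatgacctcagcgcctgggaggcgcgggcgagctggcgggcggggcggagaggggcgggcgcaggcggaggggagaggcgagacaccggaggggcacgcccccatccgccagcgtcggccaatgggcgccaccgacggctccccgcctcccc
In these windows Fos held 2 CRE half-sites, Junb 1 and Nr4a1 4. Egr2 held a CArG box and 2 half-sites, and Btg2 a full CRE. All 4 score genes with a window (Fos, Junb, Npas4 and Nr4a1) held a half-site. The share was 33.2% over the 7311 expressed genes with a window, and 17.8% over all 32851 promoter windows of this length. Of 47 expressed members of 2 lists of early genes outside the score (early transcription factors and early feedback regulators), 27 held a half-site (57.4%) and 6 a full CRE (12.8%), where 33.2% and 3.39% of the 7311 expressed genes with a window did. Among the genes called higher in high-score cells, 33.2% of 996 held a half-site and 2.21% a full CRE, and among those called lower 30.5% of 1472 and 3.60%. The motif shares of the early gene lists were therefore above those of all expressed genes. The shares of the genes called higher or lower in this comparison lay closer to those of all expressed genes. A match is a description of letters only. Only these 250 bases were searched, so a motif absent here may lie outside the window.

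The score chose the cells, so its values are a description. It ran from 27851 CPM in the highest cell to 798 CPM in the lowest, with no wide step at either edge. The last high-score cell had 12844 CPM and the first middle cell 12553 CPM, and the last middle cell had 7631 CPM and the first low-score cell 6921 CPM. The median score was 16028 CPM in the high-score, 10290 CPM in the middle and 3907 CPM in the low-score cells. The low-score cells were thus not free of early gene RNA, and even the lowest cell held reads of these genes.

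**Figure D1:**
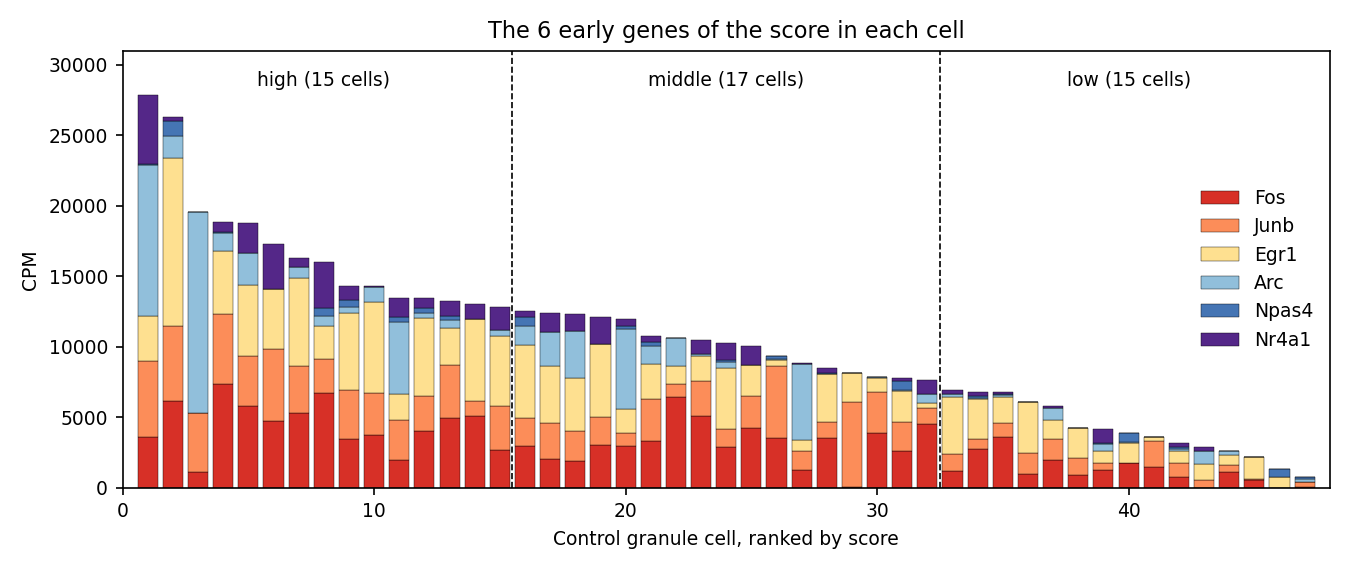
Each bar is 1 of the 47 control granule cells, ranked by score, and its height is the summed CPM of the 6 early genes, each in its own colour. Dashed lines mark the 15 high-score cells, which reach from 12844 to 27851 CPM, and the 15 low-score cells, which reach from 798 to 6921 CPM. The bars fall gradually, and a large Arc segment stands in a few cells only.

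Fos, Egr1 and Junb made up most of the score, with 28.6%, 27.7% and 21.5% of it over all 47 cells, while Arc gave 13.4%, Nr4a1 7.29% and Npas4 1.48%. Fos had 1128, 4738 and 7350 CPM in the lowest, median and highest of the high-score cells, and 5.59, 1130 and 3594 CPM in the low-score cells. Junb had 1088, 3437 and 5374 CPM against 3.28, 743 and 1811 CPM. For both genes the upper low-score cells overlapped the lower high-score cells. Egr1 spanned nearly the same low end in both subsets, at 9.79, 4955 and 11907 CPM against 2.82, 1339 and 4045 CPM. Nr4a1 had 10.3, 1071 and 4912 CPM against 0.869, 11.8 and 1009 CPM, and reached 10 CPM in all 15 high-score but in 8 low-score cells.

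Arc and Npas4 were the uneven members. Arc had 6.08, 785 and 14214 CPM in the high-score cells and 1.93, 125.7 and 921 CPM in the low-score cells, and it was the largest of the 6 genes in 3 high-score and no low-score cells. Npas4 had 0.196, 40.9 and 1053 CPM against 0.0824, 8.73 and 678 CPM, and reached 10 CPM in 8 high-score, 8 middle and 7 low-score cells. Npas4 was thus under 10 CPM in 7 high-score cells. Egr1 was the largest of the 6 genes in 7 high-score and in 7 low-score cells, Fos in 4 and 5, and Junb in 1 and 3. All 6 genes were at 100 CPM or more in 6 high-score, 3 middle and 0 low-score cells, whereas no more than 3 of them were in 1 high-score and 7 low-score cells.

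To see whether the 6 genes ranked the cells alike, each was set against the 15 highest and 15 lowest cells by the sum of the other 5, a ranking it did not enter. The log2 ratio of its mean CPM was 2.61 for Nr4a1, 1.21 for Fos, 1.17 for Egr1, 1.12 for Junb and 0.87 for Npas4. Arc had -0.40, with 1 cell low in the other genes at 14214 CPM of Arc, although its median was 705 CPM in the high and 253 CPM in the low cells of that ranking. In that ranking 14 of 15 high cells were above the median of the low cells for Fos, Junb and Nr4a1, 12 of 15 for Egr1 and Arc, and 8 of 15 for Npas4. Egr1 did not follow that ranking step by step, with medians of 2583, 3811 and 1339 CPM in its high, middle and low cells. Npas4 had the fewest high cells above the median of the low cells.

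All other genes were compared as the log2 ratio of the summed reads of the high-score over the low-score cells, in CPM with 1 CPM added, so that the ratio of weakly read genes is drawn toward 0. Of genes outside the score, 9355 were expressed, meaning a read in 25% of the cells and 10 CPM in at least 1 subset. A gene was called when the summed reads, the mean per-cell CPM and that mean without the highest cell of each subset all differed at least 2-fold in 1 direction, and when the share of cells at 10 CPM or more did so too by any amount. By this rule 1260 genes were called higher in the high-score cells, 13.5% of those expressed, and 1853 were called lower, 19.8%. The median log2 ratio over all expressed genes was -0.12. With the authors' normalized values in place of CPM the calls were 923 higher and 2205 lower, and with a score of mean log2 CPM per gene 2306 higher and 821 lower, so the balance of higher and lower calls depends on these choices. The shares of 13.5% and 19.8% are the background against which each list is read. Gene-assigned reads per cell ran from 1811538 to 6515946 in the high-score and from 2208757 to 12139186 in the low-score cells, with medians of 4648613 and 4323244, and a median of 6949 and 6820 genes had a read.

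The early transcription factors outside the score had a higher median ratio than all expressed genes, and more of them were called higher than lower. Of 30 genes on the list 25 were expressed, 7 were called higher (13.5% of all expressed genes were) and 2 lower, and the median log2 ratio was 0.65, or 0.61 over all 30. Jun, which encodes the usual partner of Fos in AP-1, had 1.96, 1275 and 3089 CPM in the lowest, median and highest high-score cell and 2.61, 82.5 and 1168 CPM in the low-score cells. Its middle cells had a median of 617 CPM, between the 2 subsets, and in summed reads its log2 ratio was 2.61. Egr2, a zinc finger factor close to Egr1, had 0.624, 565 and 1646 CPM against 0.193, 7.77 and 1022 CPM, a log2 ratio of 2.23. Both genes were high in most high-score cells and low in most low-score cells, with some cells of each subset on the other side.

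Egr4, of the same family, stood at the level of the score genes, with 3.53, 3637 and 7304 CPM in the high-score and 19.4, 796 and 2859 CPM in the low-score cells. Its log2 ratio was 1.28, but it was not called, since 14 high-score and 15 low-score cells reached 10 CPM, a share of cells that ran the other way. Genes with equal shares in both subsets cannot be called under this rule, among them 42 genes at 10 CPM or more in all 30 cells. Fosb, the Fos paralogue, had a log2 ratio of 0.75 and medians of 267 and 72.5 CPM, and Fosl2 a log2 ratio of 0.65, neither called. Klf4 (4.25), Tsc22d3 (3.50), Egr3 (1.52) and Csrnp1 (4.49), all of this list, were called higher. They rested on 3, 4, 3 and 2 high-score cells at 10 CPM or more, against 1, 3, 1 and 0 low-score cells. Without the highest cell of each subset the log2 ratio of mean CPM was 2.17 for Csrnp1. The other nuclear receptors of the Nr4a1 family were not called higher. Nr4a2 had medians of 37.8 and 143 CPM and a log2 ratio of -0.62, and Nr4a3 110.8 and 104.2 CPM and -0.87, with wide overlap.

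The early feedback regulators, whose products limit kinase signalling, growth or RNA stability, had a median ratio above that of all expressed genes too. Of 36 genes 29 were expressed, 9 were called higher and 4 lower, and the median log2 ratio was 0.52, or 0.34 over all 36. Btg2, an antiproliferative cofactor of mRNA deadenylation, had 14.5, 1620 and 4256 CPM against 0.217, 510 and 1945 CPM, a log2 ratio of 1.48. Dusp1, a phosphatase of MAP kinases, had 6.06, 771 and 10605 CPM against 2.61, 433 and 4100 CPM, a log2 ratio of 1.1. For Dusp1 and Btg2 the middle cells had the highest medians, 1767 and 1769 CPM, so these genes did not follow the score step by step. Spry2, an inhibitor of growth factor signalling, was called higher (3.61) with 5 against 1 cells at 10 CPM or more.

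Other feedback genes were lower or alike. Ier2 was called lower (-4.78) on 0 against 2 cells at 10 CPM or more, Dusp5 (-2.87) on 1 against 4, and Zfp36l1 on 0 against 2. Rgs4, which speeds the shut-off of G protein signalling, had medians of 790 and 938 CPM and a log2 ratio of 0.01, and Rgs2 had -0.75. The summed CPM of the whole feedback list had medians of 15144 CPM in the high-score, 17992 in the middle and 9870 in the low-score cells, against 9199, 5144 and 3663 CPM for the early transcription factors.

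**Figure D2:**
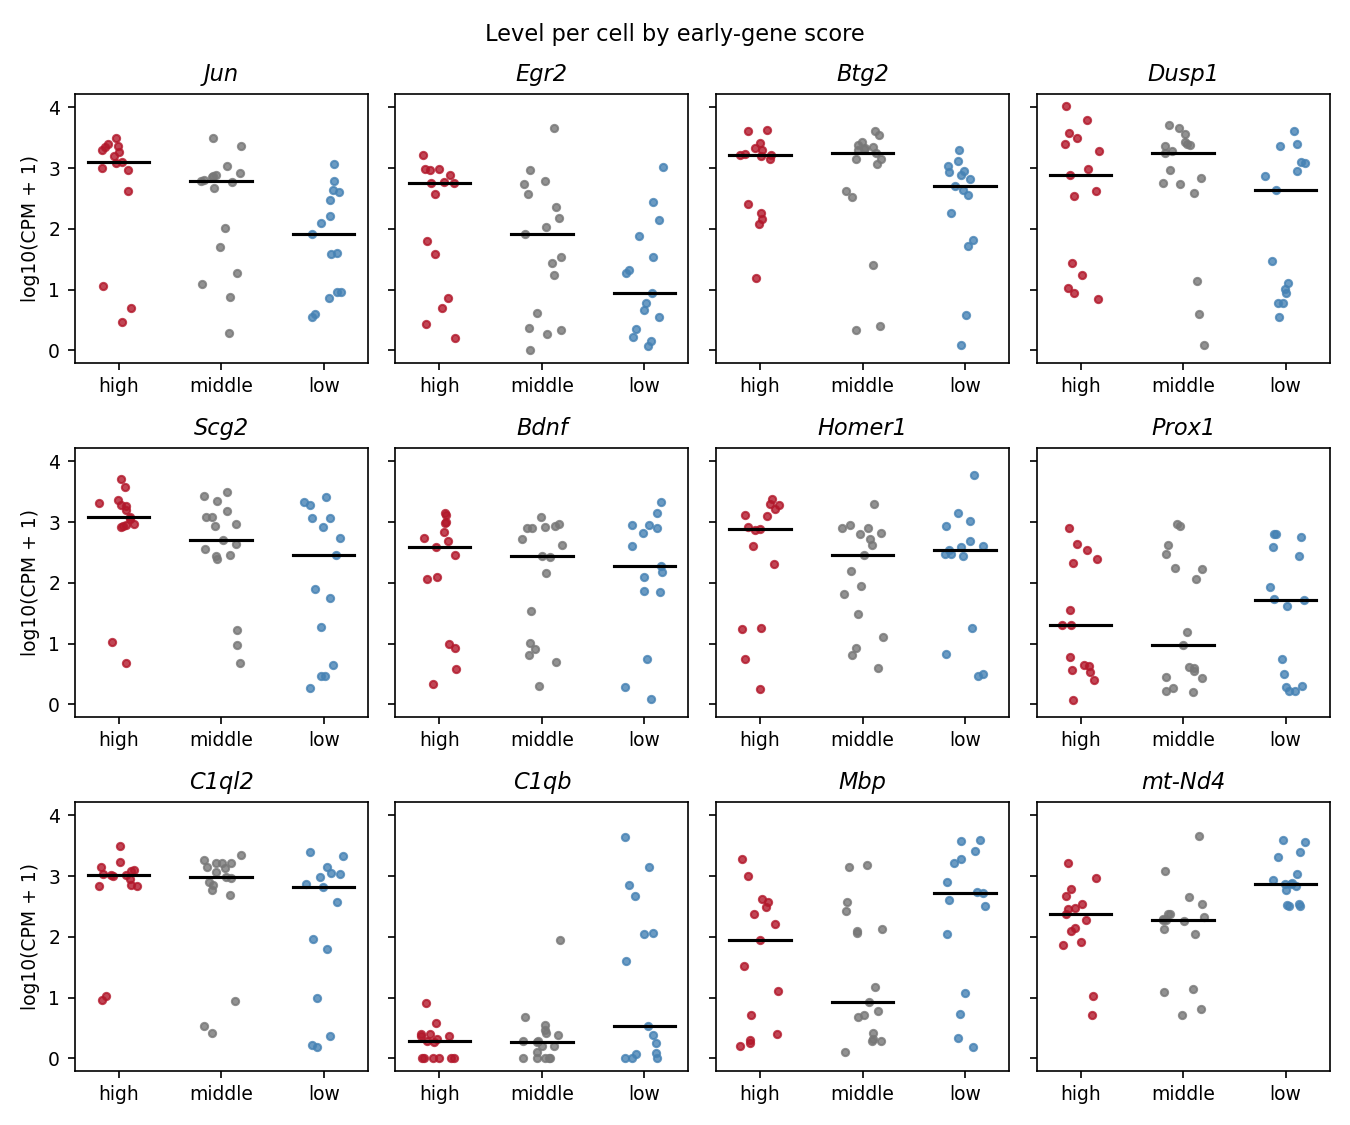
Each point is 1 cell, placed by its score subset (high 15, middle 17, low 15 cells), and the height is log10 of CPM plus 1, with a black bar at the median of these log values. Jun and Egr2 fall from high to low, Btg2 and Dusp1 are highest in the middle, and Bdnf, Homer1, Prox1 and C1ql2 overlap throughout. C1qb reaches high values in low-score cells and mt-Nd4 is higher in them.

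Genes of the later response, which carry out synaptic and secreted functions, were not higher with the score. Of 40 genes 27 were expressed, none was called higher and 4 were called lower, and the median log2 ratio was -0.24, or -0.18 over all 40. Bdnf, a secreted neurotrophin, had 1.18, 389 and 1428 CPM in the high-score and 0.217, 188.98 and 2166 CPM in the low-score cells, a log2 ratio of 0.08. Homer1, whose short activity-induced form loosens postsynaptic scaffolds, had 0.785, 765 and 2430 CPM against 1.97, 352 and 5954 CPM, a log2 ratio of 0.29. Without the highest cell of each subset the log2 ratio of mean CPM was 0.91 for Homer1 and 0.07 for Bdnf. The subsets overlapped over nearly their whole range for both genes, and gene counts do not part the Homer1 isoforms.

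Ptgs2, the inducible cyclooxygenase, had a log2 ratio of 1.96 but reached 10 CPM in 4 cells of each subset and was not called. Nptx2, Inhba, Pcsk1 and Sorcs3 reached 10 CPM in at most 3 cells of either subset, so few cells carry their values. The 4 genes called lower were Rasgrp1, a Ras exchange factor (-5.68, on 0 against 2 cells), Lingo1 (-3.50, on 0 against 4), Fam126b (-2.81, on 3 against 7) and Mest (-1.45, on 1 against 2).

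Among 24 neuropeptide and granin genes 13 were expressed, with 2 called higher, 1 lower and a median log2 ratio of 0.13. Scg2, a granin of dense-core vesicles, had 3.83, 1206 and 5067 CPM in the high-score and 0.869, 291 and 2583 CPM in the low-score cells, a log2 ratio of 1.22. Its middle median was 504 CPM, between the subsets. Pdyn, the precursor of dynorphin in granule cells, was called higher (5.61) on 3 against 0 cells at 10 CPM or more, and Pcsk2, a prohormone convertase, lower (-2.30) on 3 against 8. Vgf had a log2 ratio of -0.35, and Penk and Npy reached 10 CPM in at most 2 cells of either subset.

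The signalling genes that act upstream of early genes showed little difference as a group. Of 51 genes for calcium, CREB and MAP kinase signalling 47 were expressed, 3 were called higher and 8 lower, and the median log2 ratio was -0.05. Those called lower included the kinases Rps6ka3 (-6.53) and Camk2d (-5.99) and the histone deacetylase Hdac5 (-5.34), each on 2 to 5 low-score cells at 10 CPM or more. Heat shock and chaperone genes had 3 called higher (Hspa1a, Hspa4l and Dnajb1) and 3 lower of 26 and a median of 0.12. The summed CPM of the list had medians of 9897 CPM in the high-score, 10865.5 CPM in the middle and 6972 CPM in the low-score cells. Dnajb1, a heat-inducible cochaperone, had 2.59, 731 and 6150 CPM against 0.379, 26.1 and 1018 CPM and a log2 ratio of 2.16. Hspa4l had 2.41 on 4 against 1 cells. Within title numbers 1 to 20 Dnajb1 had -0.15, and within 61 to 100 Hspa4l had -0.62. Of 20 expressed genes of the unfolded protein and integrated stress responses, 3 were called higher, among them Pdia4 (6.35) and Manf (2.29), and 3 lower, among them Ddit3 (-2.76), a pro-apoptotic stress factor with medians of 1.44 and 63 CPM. The p53 list had 3 of 10 called each way. Mdm2, the p53 ubiquitin ligase, was among those higher, with medians of 103.5 and 0.758 CPM and a log2 ratio of 1.77, and Bbc3, a pro-apoptotic p53 target, had 2.48 on 3 against 1 cells.

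**Figure D3:**
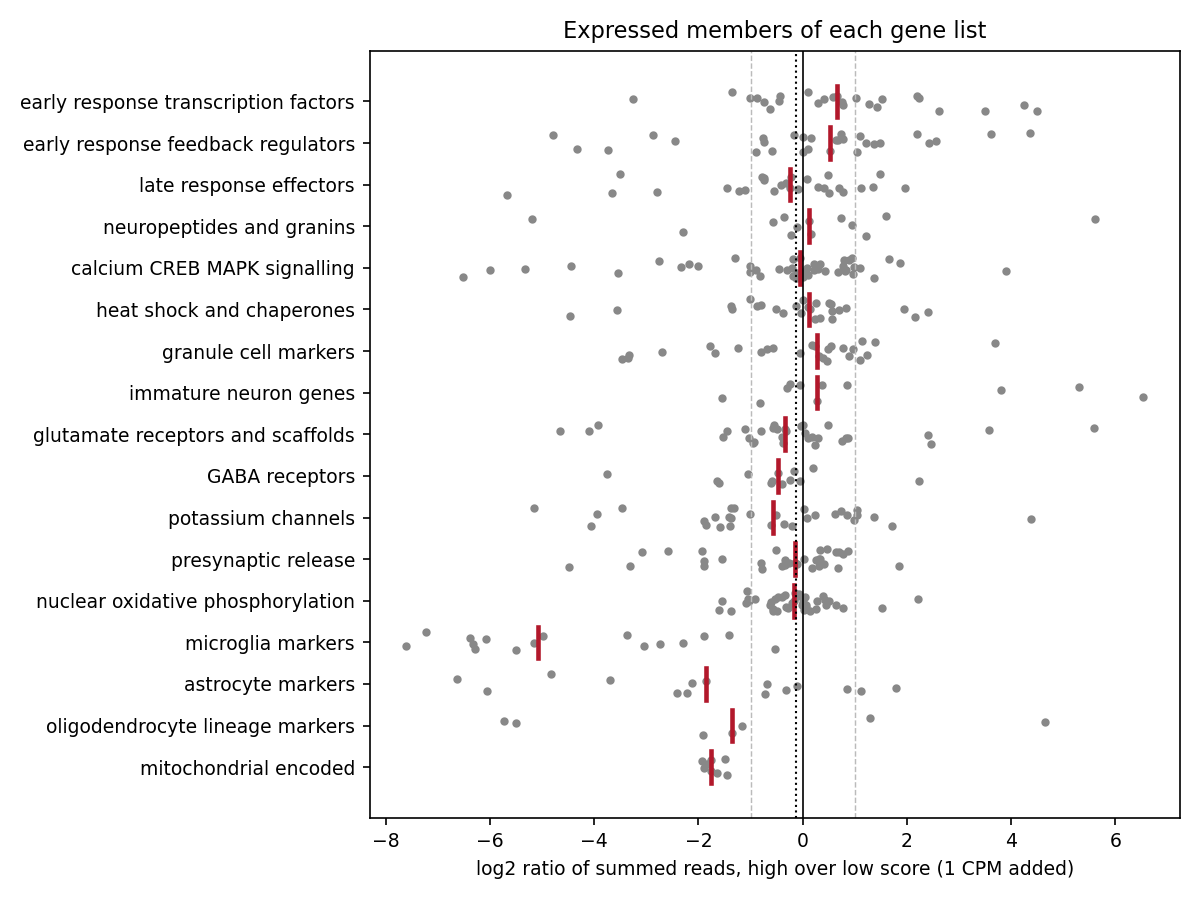
Each grey point is 1 expressed member of a gene list, placed by its log2 ratio of summed reads (high-score over low-score cells, 1 CPM added), and the red bar is the list's median. The dotted line is the median of all expressed genes (-0.12), and dashed lines mark 2-fold. The early transcription factors (0.65) and feedback regulators (0.52) lie to the right, and microglia (-5.07), astrocyte (-1.86), oligodendrocyte (-1.37) and mitochondrially encoded (-1.76) genes to the left.

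Few granule cell markers differed between the subsets. All 26 granule cell markers were expressed, 1 was called higher and 4 lower, the median log2 ratio was 0.27, and high-score and low-score cells held a median of 13 (range 2 to 19) and 11 (range 5 to 18) of them at 10 CPM or more. C1ql2, a synaptic organizer of mossy fibres, had 8.07, 1044 and 3149 CPM against 0.537, 673 and 2485 CPM, and Calb1, a calcium buffer of mature granule cells, medians of 954 and 955 CPM. Prox1, the transcription factor that specifies granule cells, had 0.167, 19.2 and 784 CPM against 0.652, 50.9 and 647 CPM, a log2 ratio of -0.06. These subsets overlapped fully. Slc17a7, the vesicular glutamate transporter (-0.27), Gad1, a GABA-synthesizing enzyme (-0.01), and Smoc2, an extracellular matrix protein (0.46 on 5 cells each), were also not called, while Zfpm2, a transcription cofactor, was called higher (3.68) on 5 against 4 cells, with 1 high-score cell at 4218 CPM and a log2 ratio of mean CPM of 1.71 without the highest cell of each subset. Of 11 expressed immature neuron genes, Sox4, Dcx and Tubb3 were called higher, each on at most 3 high-score cells, and none lower. Granule cell markers were thus read in every cell of both subsets.

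Among genes for excitability and transmission, potassium channel and GABA receptor genes had the highest shares called lower, and the other lists lay near or below the background. Of 30 expressed potassium channel genes 2 were called higher and 11 lower (19.8% of all expressed genes were lower), of 32 glutamate receptor and scaffold genes 3 and 4, of 23 sodium, calcium and HCN channel genes 3 and 3, and of 33 presynaptic genes 1 and 8. The potassium channel list had a median log2 ratio of -0.57, and of 0.10 and -0.25 within title numbers 1 to 20 and 61 to 100. Its summed CPM had medians of 1718 CPM in the high-score and 1448 CPM in the low-score cells, so its total was not lower. GABA receptor genes had 1 called higher and 4 lower of 13, with a median log2 ratio of -0.47. Gabra4, a receptor subunit of granule cells, had 0.255, 1.34 and 895 CPM in the high-score and 0.806, 297 and 934 CPM in the low-score cells, and it reached 10 CPM in 4 against 11 cells (log2 ratio -1.65). Gabra2 (-1.61) and Gabrd (-3.75), other subunits, were also called lower, and Gabbr2, a subunit of the metabotropic receptor, higher (2.22). With a score of mean log2 CPM, Gabra4 (0.31) and Gabrd (0.46) were on the other side of 0. Nuclear genes of oxidative phosphorylation had 2 called higher and 4 lower of 42, with Uqcrc1 (1.52) and Atp5o (-1.55) as examples.

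RNA of mitochondria and of glia was lower in the high-score cells, and these values stand beside every list above. The 13 genes of the mitochondrial genome summed to 1137, 3057 and 21613 CPM in the lowest, median and highest high-score cell, and to 2519, 12009 and 51451 CPM in the low-score cells. At 10000 CPM or more were 1 high-score, 3 middle and 9 low-score cells. Of 8 expressed members 5 were called lower and none higher, with a median log2 ratio of -1.76. mt-Nd4, a subunit of complex I, had 4.09, 236 and 1621 CPM against 321, 743 and 3974 CPM, and mt-Nd5 a log2 ratio of -1.90. The subsets overlapped, but all low-score cells were above the median of the high-score cells for mt-Nd4.

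Microglia markers summed to 29.9, 442 and 5315 CPM in the high-score cells and 299, 1206 and 32690 CPM in the low-score cells, and 2 high-score and 9 low-score cells held 1000 CPM or more. Of 21 markers, 14 reached 10 CPM in no high-score cell, and 3 (Cx3cr1, Tmem119 and P2ry13) in no low-score cell. C1qb, a complement component made by microglia, had 0, 0.935 and 7.14 CPM against 0, 2.38 and 4475 CPM, and reached 10 CPM in 0 against 7 cells. C1qc (-7.22), Trem2 (-6.38) and C1qa (-6.33) were called lower likewise. The list had 14 of 16 expressed members called lower, a median log2 ratio of -5.07 over those 16 and of -3.05 over all 21.

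Astrocyte markers summed to a median of 809.7 CPM in the high-score and 1587 CPM in the low-score cells, and 8 of 15 expressed members were called lower and 1 higher, with Mlc1 (-6.06) and Acsbg1 (-6.63) among the lower. Oligodendrocyte markers had medians of 365 and 749 CPM and 3 of 7 called lower, and Mbp, a myelin protein, had 0.576, 88.4 and 1900 CPM against 0.549, 519 and 3983 CPM. No endothelial or mural marker was expressed. The part of this other RNA in the differences above was not tested. When cells with 10000 CPM of mitochondrial or 1000 CPM of microglial RNA were left out before ranking, a choice made after seeing these sums, 28 cells remained and the 10 highest were set against the 10 lowest. The early transcription factors then had 4 called higher and 0 lower of 23 and a median of 0.31, and the feedback regulators 2 and 1 of 24 and a median of 0.35. Of all expressed genes in that setting 18.7% were called higher and 14.8% lower, so neither list's share called higher exceeded the background. Most of these 10 lowest cells were middle cells in the split above. The 10 lowest ran from 5811 to 10633 CPM in score, where the low-score cells ran from 798 to 6921 CPM. This setting thus compares a narrower range of scores, and the 2 changes cannot be told apart.

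**Figure D4:**
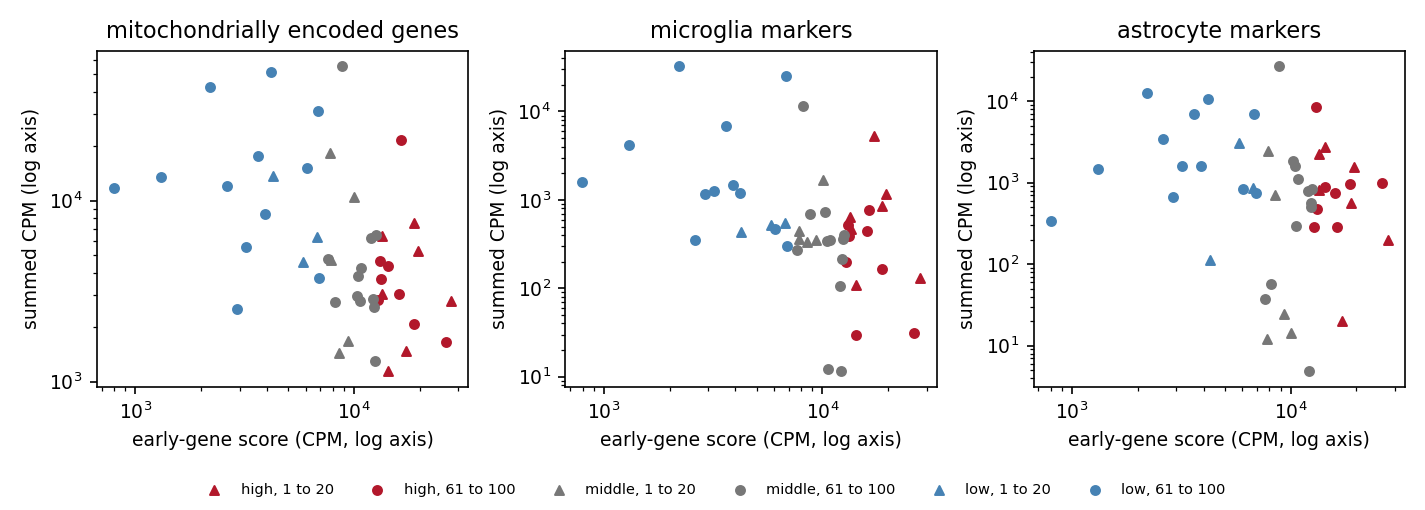
Each point is 1 of the 47 cells, with the early gene score (CPM, log axis) across and the summed CPM of mitochondrially encoded, microglia or astrocyte genes (log axis) upward. Colours give the subset and shapes the run of title numbers (triangles 1 to 20, circles 61 to 100). The highest mitochondrial and microglial sums stand in low-score and middle cells, at up to 51451 and 32690 CPM among the low-score cells, and 9 low-score cells exceed 10000 CPM of mitochondrial RNA.

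The titles of these cells fall into 2 runs of numbers, 1 to 20 with 15 cells and 61 to 100 with 32 cells, which the labels do not explain. The first run gave 7 high-score and 3 low-score cells and the second 8 and 12, so the subsets differ in this respect. Split within the second run (10 against 10 cells), the members used above had a median log2 ratio of 1.43 for early transcription factors, 0.96 for feedback regulators, -6.25 for microglia markers and -2.04 for mitochondrially encoded genes. Split within the first run (5 against 5 cells), the medians were -0.10, -0.02, 0.43 and -1.58. The medians of early genes and of microglia markers thus differed from 0 in the directions above in the second run and not in the first, while the mitochondrial median was below 0 in both. With expression judged within each run, 7 of 21 early transcription factors were called higher and 3 lower in the first run (12.9% and 16.9% of all expressed genes there were), and 8 of 23 and 1 in the second (14.2% and 20.7%). Feedback regulators had 1 of 24 called higher and 2 lower in the first run, and 8 of 29 and 5 in the second. Jun (1.64 and 2.45 in the first and second run), Egr2 (1.97 and 3.10), Btg2 (0.63 and 2.30), Dusp1 (0.99 and 0.96) and Scg2 (1.07 and 1.57) were higher in both. Bdnf (-1.61 and 1.39), Homer1 (-0.24 and 1.81) and C1ql2 (-0.66 and 1.53) went opposite ways.

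The genes with the largest ratios were read strongly in few cells. Among the 12 highest called genes with the same direction in the second run, 10 are given here, Cox15, Tctn3, Qsox2, Slc25a29, Iffo1, Isyna1, Zfp94, Fkbp15, Zdhhc15 and Scaf8, with log2 ratios of 6.72 to 7.48. They reached 10 CPM in 2 to 6 of 15 high-score cells and in at most 1 low-score cell. Without the highest cell of each subset their log2 ratios of mean CPM were 1.38 to 6.78, with Fkbp15 at 1.38. They include a cytochrome c oxidase assembly factor (Cox15) and the inositol phosphate synthase Isyna1. The 12 lowest were C1qb, Cbs, C1qc, Fut11, Pwp2, Selenop, Tbc1d9b, Med22, Timm22, Alg3, Acsbg1 and Mapk7, with log2 ratios from -7.60 to -6.58, on 2 to 7 low-score cells and 0 high-score cells at 10 CPM or more. C1qb, C1qc and Acsbg1 are members of the glial marker lists used here, and whether the others came from glia was not tested. Cbs is an enzyme of sulfur amino acid metabolism and Mapk7 a MAP kinase of the growth factor response.

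The same score and the same 15 against 15 split were applied to the other groups, whose cells took no part in the choice above. The score medians of their high and low cells were 14781 and 1841 CPM in Ascl4 granule cells, 11796 and 2199 CPM in EGFP CA1 cells and 11202 and 2434 CPM in Ascl4 CA1 cells. Early transcription factors were higher in each, with 10 of 24, 13 of 25 and 13 of 27 expressed members called (15.6%, 23.9% and 16.7% of all expressed genes were called higher) and medians of 1.71, 1.81 and 1.16, all above the 0.65 of the control granule cells. Feedback regulators had 5 of 29, 17 of 27 and 11 of 29 called higher and medians of 0.54, 1.83 and 1.01. Late effectors had medians of 0.61, 0.58 and 0.21, where the control granule cells had -0.24. The medians over all expressed genes were 0.44, 0.19 and 0.08 in these groups and -0.12 in the control granule cells, so these list medians stand on different overall levels. The difference between groups was not tested.

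Microglial and mitochondrial genes were lower in those splits too, while astrocyte and oligodendrocyte genes differed between the groups. Microglia markers had 11, 15 and 13 of 20 expressed members called lower in Ascl4 granule, EGFP CA1 and Ascl4 CA1 cells (17.4%, 11.2% and 12.7% of all expressed genes were), and mitochondrially encoded genes 8 of 11, 5 of 9 and 5 of 11. The astrocyte median was -2.71, 0.28 and -1.90, and the mean summed CPM of these markers was 609.9 against 2832 in high and low Ascl4 granule cells, 1793 against 3164 in EGFP CA1 and 976 against 3338 in Ascl4 CA1 cells. The sum was thus lower in the high cells of all 3 groups, although the median over members was above 0 in EGFP CA1 cells. Astrocyte markers called lower were 12 of 16, 1 of 14 and 7 of 14 in the 3 groups, and 0, 3 and 2 were called higher. The oligodendrocyte medians were -4.10, -0.07 and -3.23. Single genes recurred little. Of the genes called higher in control granule cells and expressed there, 18.4% of 1066, 29.1% of 1072 and 21.2% of 1087 were called higher in the 3 groups, near the background of each, and these made up 13.1%, 13.9% and 13.9% of the groups' own lists. Of those called lower, 21.1% of 1605, 12.2% of 1594 and 14.3% of 1617 were, or 20.3%, 18.6% and 18.5% of the groups' lists.

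**Figure D5:**
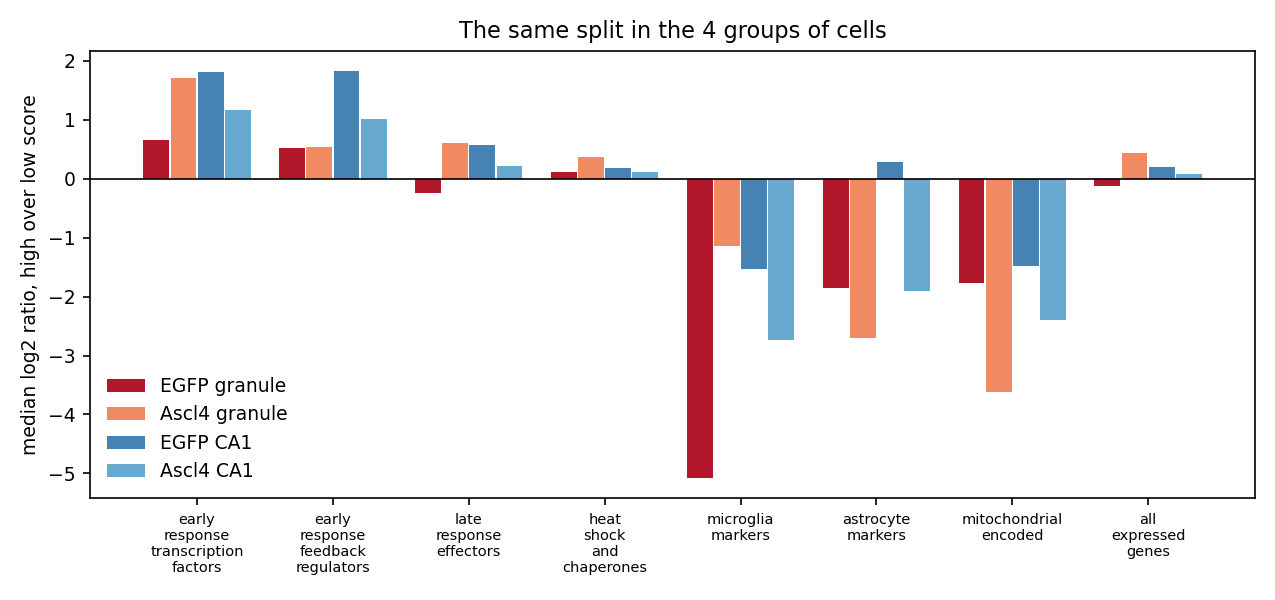
Bars give the median log2 ratio of each list's expressed members, and of all expressed genes, between the 15 highest and 15 lowest cells by early gene score in each of the 4 groups. Early transcription factors are above 0 in all 4 (0.65, 1.71, 1.81 and 1.16), and microglia and mitochondrially encoded genes are below 0 in all 4.

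Of the 1260 genes called higher and the 1853 called lower in control granule cells, 19 and 22 were called the same way in all 4 groups. In the other 3 groups 15.6%, 23.9% and 16.7% of all expressed genes were called higher, and 17.4%, 11.2% and 12.7% lower. How many shared calls these shares alone would give was not tested. The genes named here were chosen after their values were seen. Jun was higher in each, at 2.61, 3.70, 2.24 and 1.96 in EGFP granule, Ascl4 granule, EGFP CA1 and Ascl4 CA1 cells. Trib1, a pseudokinase that directs protein breakdown, had 2.43, 2.78, 5.82 and 2.56, although in the control granule cells it reached 10 CPM in only 6 high-score and 4 low-score cells and turned to -1.59 with a score of mean log2 CPM. Pcdh8, an activity-regulated protocadherin, had 1.02, 1.47, 2.08 and 1.83, with medians of 1199 and 126.04 CPM in the control granule cells, and Bbc3 was also among them. Trem2 (-6.38, -2.15, -2.56 and -2.29) and mt-Nd4 (-1.84, -4.33, -1.91 and -3.08) were among the 22 lower. Egr2, Btg2 and Scg2 were not called in every group. Egr2 had 0.11 in EGFP CA1, Btg2 -0.31 in Ascl4 granule and Scg2 -0.66 in Ascl4 CA1 cells.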

How the data were processed

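RNA of single patched neurons was sequenced. The authors deposited raw counts of reads per gene, before and after their quality control, and a normalized signal, in which each cell's counts had been divided by 1 factor. STAR, HTSeq and the build GRCm38.p4 are named per the submitters' processing notes, with no version or option in the sources used here. The labels state more quality-controlled control granule cells than the 47 in the table, and the table was used. The 92 spike-in rows (4 reads in the quality-controlled table) were left out of totals. The quality-controlled counts of these cells were scaled to CPM, and the score, subsets and call rule are as described above. Deeper cells weigh more in summed reads, single cells miss transcripts by chance, and strand use in counting is not stated, so overlapping genes cannot be parted.

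The members, the 26 gene lists, the call rule and the naming rule were chosen with earlier results of these data known. Named genes were the 6 score genes, a fixed set of early, late and identity genes, the 12 highest and 12 lowest called genes with the same direction in title numbers 61 to 100 (without predicted models, pseudogenes, ribosomal and mitochondrial genes) and up to 4 called members of a list. Of the 12 highest, 10 are reported here. Alternatives varied the weight and number of cells, the score, scaling (edgeR TMM, DESeq2 median of ratios, the authors' values), pseudocount, filter, depth, title numbers and quality control. The code was tested on simulated data. Symbols matched GENCODE for 22566 of 22870 genes. Promoter windows came from RefSeq. Arc and Trib1 had no window and Egr1 is not shown. R 4.3.3 ran DESeq2 1.42.0 and edgeR 4.0.16, and Python 3.11.15 ran matplotlib 3.10.9, pandas 2.3.3, scipy 1.17.1 and numpy 2.4.6.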

Additional observations from a re-analysis of the deposited data

How the results depend on the processing

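Most values kept their direction. No test was made, so no p-value threshold applies, and the calls rest on the 2-fold rule given above. No paired analysis was possible because the labels name no animal. Scoring by mean log2 CPM shared 10 of 15 high and 9 of 15 low cells with the score used and gave 2306 genes called higher, 821 lower and a mitochondrial median of -0.999. It reversed Dusp5 (0.50), Trib1 (-1.59), Lingo1 (0.98), Mest (0.10), Sox4 (-0.17), Hdac5 (1.79), Gabrd (0.46), Gabra4 (0.31), Tctn3 (-0.71), Med22 (1.18) and Timm22 (0.30). In the split described above, CA1 markers had a median log2 ratio of -1.97 over 8 expressed genes and interferon genes -1.34 over 7. The medians printed below for these 2 lists lie on the other side of 0. A stricter filter (50% of cells and 50 CPM) tested fewer genes, with 723 called higher, 994 lower and a CA1 marker median of 0.75.

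Expression was judged anew within each run of title numbers, so the medians here can differ from those of the members used above. Of the microglia markers, 5 were expressed within numbers 1 to 20, and 1 was called higher. The members used above had a microglia median of 0.43 there. Title numbers 1 to 20 alone gave 1158 genes called lower and medians of -0.11 for early transcription factors, -0.072 for feedback regulators, 4.60 for microglia, 1.82 for oligodendrocyte and 1.43 for interferon genes. They reversed Egr3 (-4.83), Csrnp1 (-5.01), Zfp36l1 (0.014), Trib1 (-2.36), Lingo1 (0.39), Tubb3 (-0.053), Dnajb1 (-0.15), Pcdh8 (-0.0099), Fkbp15 (-1.45), C1qb (0.51), C1qc (0.58), Acsbg1 (0.20), Trem2 (0.25), C1qa (0.36), Mlc1 (0.22) and Mbp (1.82). Numbers 61 to 100 alone gave 1.43, 1.11 and -6.09 for early transcription factors, feedback regulators and microglia, 2.02 for CA1 markers, and reversed Hspa4l (-0.62), Hdac5 (0.64), Gabra4 (0.42) and Bbc3 (-1.70).

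With 10 against 10 cells the medians were 1.96 (early transcription factors), -4.30 (microglia) and -3.37 (astrocytes), and Mest (0.16) and Zdhhc15 (-0.30) reversed. With 20 against 20, Trib1 (-1.21) and Lingo1 (0.37) reversed. The authors' values gave -1.11 for astrocyte and -0.89 for mitochondrial genes and reversed Csrnp1 (-1.52), Trib1 (-2.19) and Mest (0.21). Cells without quality control gave 1.63, 1.35 and -4.02 for early transcription factors, feedback regulators and microglia and 0.84 for oligodendrocytes. Microglia had -6.48 and -2.47 with 0.1 and 10 CPM added and -3.05 without a filter, astrocytes -2.74 without the deepest 2 cells of each subset and -1.15 after thinning to 500000 reads, and CA1 markers 0.044 without the highest cell. The cause was not tested.

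A further 3 choices were added after seeing the data. Leaving out cells rich in mitochondrial or microglial RNA gave medians of 0.0078 (microglia) and 0.15 (mitochondrial), the 2 lists on which cells were left out. It also gave 0.61 (astrocytes), 1.32 (oligodendrocytes) and 2.11 (interferon), lists that the cut did not use, and the cause was not tested. The same choice reversed Spry2 (-0.028), Trib1 (-1.40), Sox4 (-2.72), Tubb3 (-0.072), Slc25a29 (-2.75), Fkbp15 (-2.23), C1qc (0.42), Selenop (0.51), Acsbg1 (0.31), Trem2 (0.43) and mt-Nd5 (0.15). Totals without glial and mitochondrial genes, and calls without the demand on the share of cells, reversed none of the values reported. Leaving out cells with 100 CPM of microglia markers was not run, since 4 cells remained. Animals are unlabelled, so spread between animals is unknown, and genes read in 2 to 6 cells rest on those cells.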
